A study of Homo sapiens with 6 samples.

Results

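The genes of the proteasome were followed in TT cells, a human line from medullary thyroid carcinoma, after treatment with Y15 or PF-04554878. Members were chosen by name: every probe whose gene symbol, current or older, starts with PSMA, PSMB, PSMC, PSMD, PSME, PSMF or PSMG and a number. This gave 84 of the 47317 probes with values, for 53 genes. Of these, 46 genes (74 probes) code for a subunit, an activator, an inhibitor or an assembly factor of the proteasome, and the other 7 genes share only the name. The series held 6 Illumina bead arrays, with 2 arrays for each of 3 groups. The groups were TT cells given 10 μM Y15, TT cells given 10 μM PF-04554878 and TT cells left untreated. Both compounds inhibit focal adhesion kinase (FAK), which signals where cells attach to their matrix. Y15 acts at its autophosphorylation site, and PF-04554878, also called defactinib, acts on its kinase activity. Per the methods of the study, duplicate plates of each group were collected a day after treatment. The solvent was PBS for Y15 and DMSO for PF-04554878, and no solvent is named for the untreated plates, so a compound and its solvent cannot be told apart.

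The proteasome is the protease complex that degrades proteins tagged with ubiquitin. Its barrel, the 20S core, is built of alpha rings, which gate the entrance, and beta rings, which hold the proteolytic sites. The 19S particle caps the barrel, with a ring of ATPases that unfolds substrates and a set of non-ATPase subunits that bind and strip off ubiquitin chains. Dedicated assembly factors build both parts and leave the finished complex, and activators such as the PA28 proteins can replace the 19S cap. Interferon exchanges the catalytic beta subunits for inducible counterparts, which form the immunoproteasome.

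Between 15215 and 18488 probes were detected per array. The mean intensity was 263 and 272.5 on the Y15 arrays, 359 and 347.7 on the PF-04554878 arrays and 539.1 and 467.7 on the untreated arrays. Treated arrays were thus dimmer than untreated ones before normalization. All levels below are log2 intensities after quantile normalization, and every difference is on this scale. The choice of scale mattered. With arrays set to equal medians over all probes in place of quantile normalization (called median scaling over all probes below), the median change of all genes moved from -0.05 to -0.78 under Y15, and from -0.07 to -0.59 under PF-04554878. With scaling to the median over the detected probes it was 0.02 under Y15 and 0.17 under PF-04554878. Changes are therefore also read relative to the median of all genes. In bulk RNA of this kind, fewer expressing cells and less RNA per cell cannot be told apart. On at least 2 arrays, all 12 measured C cell markers were detected, while none of 5 thyroid follicular or 4 endothelial markers was, and 1 of 6 fibroblast and 2 of 4 immune markers were. CD68, one of the immune markers, was at 9.44 and 9.32 with Y15, 8.77 and 8.64 with PF-04554878 and 7.31 and 7.67 in untreated cells. Its part in the results was not tested.

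A gene was tested where a probe was detected on at least 2 arrays, which held for 42 of the 46 proteasome genes, 40 of them detected on all 6 arrays. To pass, a gene needed a change of at least 1.2-fold and, in limma, a p below 0.05 after Benjamini-Hochberg adjustment over 18876 probes. Under Y15, 7 proteasome genes were higher and 9 were lower than in untreated cells, which is 16.7% and 21.4% of the 42. Of all 11388 genes, 16.7% were higher and 21.4% lower, so the share of proteasome genes equaled the background. Under PF-04554878, 6 proteasome genes were higher and 26 lower, or 14.3% and 61.9%, against 27.2% higher and 35% lower among all genes. The median change of the 42 genes was -0.00 under Y15, where the median of all genes was -0.05, and -0.44 under PF-04554878, where it was -0.07. Between the compounds, 29 proteasome genes (69%) were higher with Y15 than with PF-04554878 and 7 (16.7%) were lower, against 32.9% and 27.6% of all genes. The median difference was 0.67, against 0.05 over all genes. With median scaling over all probes, 0 proteasome genes were higher and 38 lower under Y15, against 3.37% and 79.6% of all genes. Under PF-04554878 the counts were 1 and 35 (8.21% and 66.3% of all genes). For Y15 against PF-04554878 they were 16 and 7 (20.6% and 28.5%). With scaling over detected probes they were 5 and 10 under Y15 (34.2% and 29.4% of all genes). In that setting they were 7 and 20 under PF-04554878 (44% and 29.5%), and 21 and 8 between the compounds (25.7% and 27.7%). At a 2-fold minimum no proteasome gene passed under Y15, where 3.28% of all genes were higher and 1.38% lower. Under PF-04554878, 10 were lower and 1 was higher at that minimum, against 9.58% and 6.96% of all genes.

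**Figure D1:**
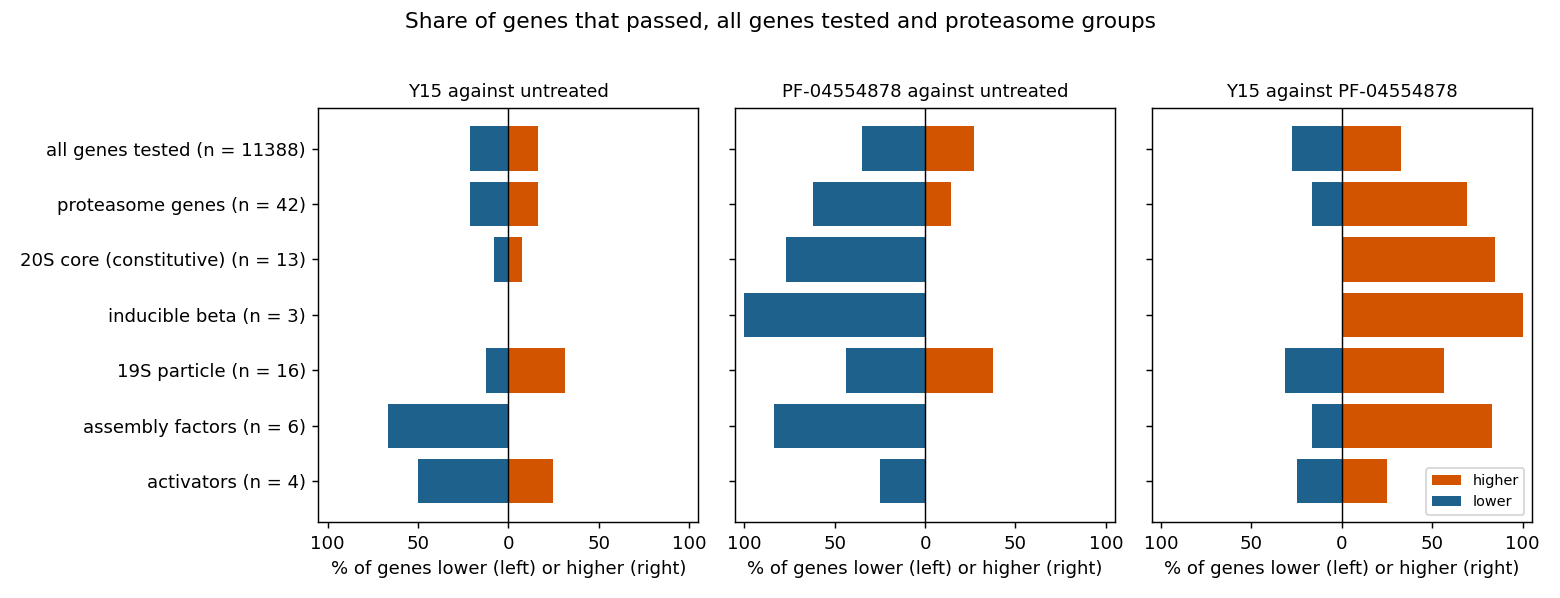
Share of genes that passed, in percent of the genes tested, lower to the left and higher to the right, for all genes and for groups of proteasome genes in the 3 comparisons. Under PF-04554878 the bar of the constitutive 20S core reaches 76.9% lower and 0% higher, while 19S genes lie on both sides (43.8% lower, 37.5% higher). With median scaling over all probes no proteasome gene was higher under Y15, and 1 was under PF-04554878, where 3.37% and 8.21% of all genes were.

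The scale changed signs and calls on both sides. All 9 genes lower under Y15 and all 26 lower under PF-04554878 lay below the median of all genes with either median scaling as well. Their own sign also held, except that PSMB1 under PF-04554878 was at 0.00 with scaling over detected probes. The 7 genes higher under Y15 all turned below 0 with median scaling over all probes, as did 5 of the 6 higher under PF-04554878, PSMD14 being the exception. Each of these genes still lay above the median of all genes in that setting. With scaling over detected probes the signs of all 13 rises held, but PSMC3 (0.13), PSMD8 (0.31) and PSME4 (0.37) no longer passed under Y15. Of the 6 rises under PF-04554878, 5 passed in that setting. All 9 falls under Y15 passed in that setting. Of the 26 falls under PF-04554878, 19 passed, while PSMA1 (-0.13), PSMA3 (-0.22), PSMA6 (-0.24), PSMB1, PSMB4 (-0.04), PSMB6 (-0.20) and PSMB9 (-0.0019) did not. Relative to all genes, the median of the 42 genes was at 0.05 under Y15 with quantile normalization and -0.10 with median scaling over all probes. Under PF-04554878 it was -0.37 and -0.43.

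The largest change among the 42 genes was that of PSMA4, an alpha ring subunit of the core (chromosome 15, 78540405-78552417, GRCh38.p14). Its level was 11.58 and 11.57 with Y15, 8.46 and 8.40 with PF-04554878 and 11.66 and 11.58 in untreated cells. The PF-04554878 arrays thus stood far below the other 4, which overlapped. PSMA4 fell to 0.109-fold under PF-04554878 (-3.19 ± 0.09 SE, adjusted p = 8.7e-07 in limma) and did not pass under Y15 (-0.05 ± 0.09, adjusted p = 0.69). A dimmer probe of PSMA4 gave -2.09 and -0.15. The other alpha subunits tested had smaller changes under PF-04554878, with PSMA5 at -0.85, PSMA6 at -0.79, PSMA1 at -0.46 and PSMA3 at -0.40 passing and PSMA2 at -0.38 not passing. The untreated arrays of PSMA2 lay 0.66 apart, at 9.22 and 8.56, which was the widest gap within a group among the 42 genes. Under Y15, PSMA3 was the only alpha gene that passed by its brightest probe (-0.56, adjusted p = 0.013 in limma). This call was lost without Y15 replicate 1, when each of the 6 arrays was left out in turn. The dimmer probe of PSMA3 did not pass under Y15 (-0.23). The PSMA3 call under PF-04554878 was lost without either PF-04554878 array or untreated replicate 1.

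In the beta rings, 5 of 7 constitutive genes fell under PF-04554878, where 35% of all genes were lower. PSMB3 led them (-1.04 ± 0.12, adjusted p = 0.00014 in limma). PSMB5, PSMB6 and PSMB7 carry the proteolytic sites. PSMB5 was at 11.95 and 12.03 with Y15, 11.11 and 10.84 with PF-04554878 and 12.08 and 11.92 in untreated cells. This is a fall to 0.491-fold under PF-04554878 (-1.03 ± 0.11, adjusted p = 0.00011), and the Y15 arrays lay within the range of the untreated ones. PSMB6 was at 12.74 and 12.68 with Y15, 12.13 and 11.98 with PF-04554878 and 12.76 and 12.75 in untreated cells, and fell to 0.617-fold under PF-04554878 (adjusted p = 0.00025; 0.13 with scaling over detected probes, where the change was -0.20). PSMB7 was at 11.50 and 11.56 with Y15, 11.51 and 11.44 with PF-04554878 and 11.52 and 11.39 in untreated cells, so that its groups overlapped. Its change was 0.02 under PF-04554878 (95% interval -0.19 to 0.23) and 0.08 under Y15 (-0.13 to 0.28). The beta subunits PSMB1 (-0.51) and PSMB4 (-0.36) also passed as lower under PF-04554878, although PSMB4 did so with only 1 of the 6 arrays left out (untreated replicate 2), and PSMB1 was lost without PF-04554878 replicate 1 (adjusted p = 0.051). PSMB2 was the only core gene higher under Y15 (0.34, adjusted p = 0.019; -0.54 with median scaling over all probes), and this call was lost without either Y15 array or untreated replicate 1.

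The inducible counterparts PSMB8, PSMB9 and PSMB10 all passed as lower under PF-04554878, and none passed under Y15, each by its brightest probe. Among all genes, 35% were lower under PF-04554878, while 16.7% were higher and 21.4% lower under Y15. PSMB10 was at 11.37 and 11.45 with Y15, 10.69 and 10.52 with PF-04554878 and 11.51 and 11.31 in untreated cells, or 0.574-fold under PF-04554878 (adjusted p = 0.00029). PSMB8 was at 8.82 and 8.59 with Y15, 8.12 and 7.94 with PF-04554878 and 8.58 and 8.42 in untreated cells (-0.47 under PF-04554878, adjusted p = 0.0079, lost without PF-04554878 replicate 2 at 0.061). PSMB9 lay near the background. Its brighter probe was at 7.10 and 7.30 with Y15, 6.92 and 6.91 with PF-04554878 and 7.35 and 7.27 in untreated cells, and was not detected on either PF-04554878 array. By this probe PSMB9 was therefore at least 1.21-fold lower under PF-04554878 (adjusted p = 0.0074 in limma). With scaling over detected probes its change there was -0.0019 and its adjusted p 0.99. It was at least 1.13-fold higher with Y15 than with PF-04554878 (adjusted p = 0.03). Such a bound sets the mean of the brighter group against the higher of each PF-04554878 array's lowest detected signal and the probe's own signal. The dimmer probe of PSMB9, detected on 4 arrays, did not pass under PF-04554878 (0.09, adjusted p = 0.54 in limma). Nor did it pass between the compounds (-0.10, adjusted p = 0.51). PSMB9 lies near PSMB8 in the class II region of the histocompatibility complex (chromosome 6, 32854192-32859851 and 32840717-32844679). PSMB11, the beta subunit of the thymus, and PSMA8, the alpha subunit of the testis, were not detected on any array.

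**Figure D2:**
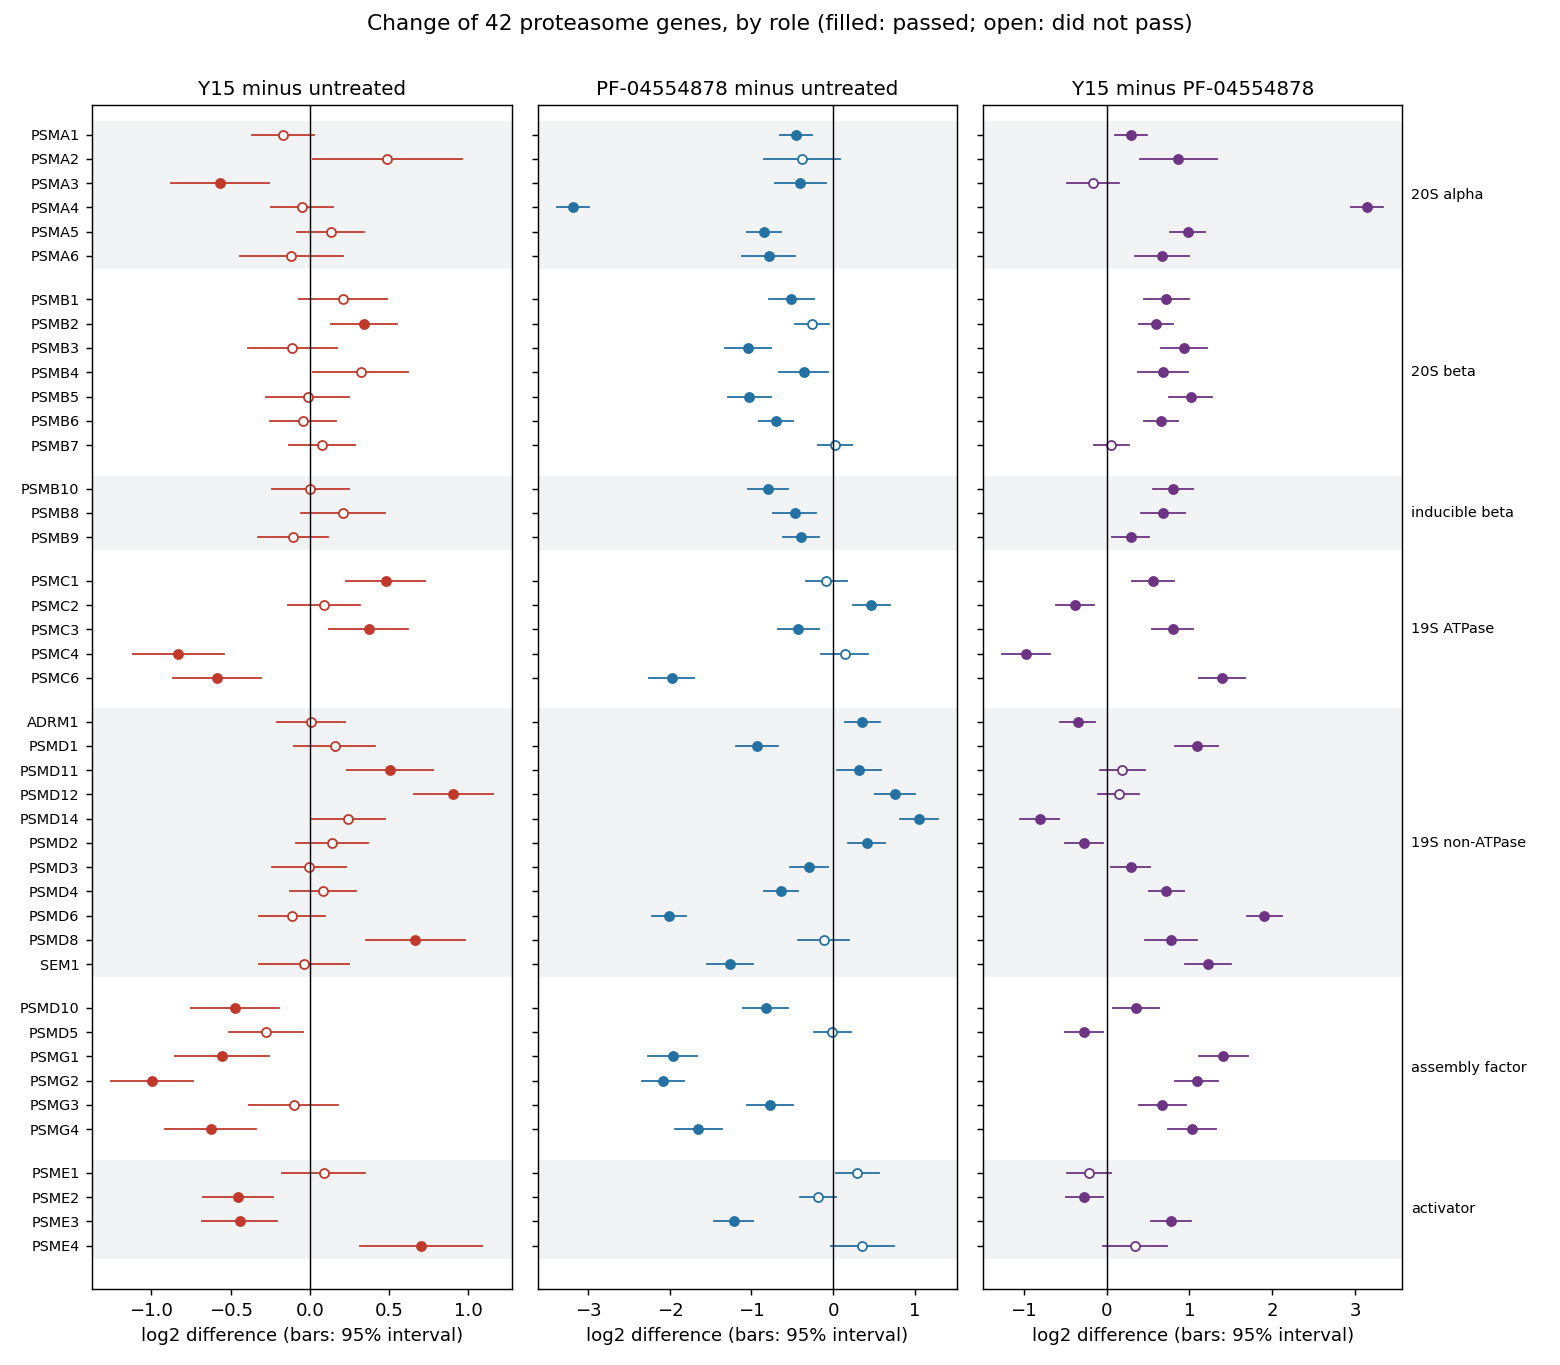
Log2 difference of each of the 42 tested proteasome genes in the 3 comparisons, grouped by role, with 95% intervals from limma; filled points passed and open points did not. Under PF-04554878 core genes and assembly factors lie left of 0 apart from PSMB7 at 0.02, while PSMD14, PSMD12, PSMC2, PSMD2, ADRM1 and PSMD11 lie to the right (PSMD14 alone with median scaling over all probes), and PSMA4 stands at -3.19.

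The 19S particle did not move one way. Of its 16 tested genes, 5 were higher and 2 lower under Y15 (16.7% and 21.4% of all genes), and 6 were higher and 7 lower under PF-04554878 (27.2% and 35% of all genes). Among the ATPases, PSMC6 fell most under PF-04554878. It was at 10.46 and 10.57 with Y15, 9.08 and 9.17 with PF-04554878 and 11.27 and 10.93 in untreated cells, so the groups were fully separate. The changes were -0.59 ± 0.12 under Y15 (adjusted p = 0.0067) and -1.98 ± 0.12 under PF-04554878 (0.254-fold, adjusted p = 4.9e-06). PSMC4 was instead lowest with Y15, at 9.06 and 8.86 with Y15, 10.02 and 9.86 with PF-04554878 and 9.94 and 9.65 in untreated cells. It fell to 0.563-fold under Y15 (-0.83 ± 0.13, adjusted p = 0.0017) and did not pass under PF-04554878 (0.15, adjusted p = 0.34). All 3 kept probes of PSMC4 passed as lower under Y15, at -0.83, -0.55 and -0.41.

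PSMC3 was the only proteasome gene that passed in opposite directions under the compounds. This ATPase was at 10.80 and 10.99 with Y15, 10.20 and 10.00 with PF-04554878 and 10.48 and 10.58 in untreated cells. Its rise under Y15 was 1.29-fold (0.37 ± 0.11, adjusted p = 0.029) and turned to -0.68 with median scaling over all probes. Its fall under PF-04554878 was to 0.744-fold (-0.43, adjusted p = 0.0092). Neither call held for every array left out: the highest adjusted p was 0.17 under Y15 and 0.065 under PF-04554878. PSMC1 was higher under Y15 alone (0.48, adjusted p = 0.011; -0.34 with median scaling over all probes), at 12.62 and 12.53 with Y15, 11.90 and 12.12 with PF-04554878 and 11.998 and 12.19 in untreated cells. Its other kept probe was at -0.46 under Y15 (adjusted p = 0.068) and did not pass. RefSeq lists 13 pseudogenes of PSMC1, and whether its probes also bind their transcripts was not tested. PSMC2 was higher under PF-04554878 alone (0.47, adjusted p = 0.0037; -0.04 with median scaling over all probes).

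Among the non-ATPase subunits of the 19S particle, PSMD6 had the largest fall. It was at 10.69 and 10.81 with Y15, 8.79 and 8.90 with PF-04554878 and 10.84 and 10.88 in untreated cells. PSMD6 fell to 0.247-fold under PF-04554878 (-2.02 ± 0.09, adjusted p = 1.5e-06), and its dimmer probe gave -1.17. The probe of PSMD6-AS2, a noncoding RNA whose gene overlaps that of PSMD6, was not detected on any array. SEM1, the small subunit also called PSMD15, was at 12.60 and 12.84 with Y15, 11.63 and 11.36 with PF-04554878 and 12.70 and 12.81 in untreated cells. SEM1 fell to 0.417-fold under PF-04554878 (adjusted p = 5.2e-05) and was not changed past the threshold under Y15 (-0.04, adjusted p = 0.84). PSMD1, a large scaffold subunit, fell by 0.93, PSMD4, a ubiquitin receptor, fell by 0.64 and PSMD3 fell by 0.30 under PF-04554878. The call of PSMD3 was lost without either PF-04554878 array or either untreated array.

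Other non-ATPase genes were higher with quantile normalization, though below 0 with median scaling over all probes except for PSMD14. PSMD14, the deubiquitinase of the particle, had the largest rise under PF-04554878; it was singled out after its values were seen. It was at 10.97 and 11.08 with Y15, 11.82 and 11.85 with PF-04554878 and 10.89 and 10.67 in untreated cells (2.07-fold, 1.05 ± 0.10, adjusted p = 5.2e-05), and remained higher, at 0.47, with median scaling over all probes. PSMD12, a lid subunit, passed under each compound, at 10.20 and 10.16 with Y15, 10.01 and 10.06 with PF-04554878 and 9.41 and 9.13 in untreated cells. Its rises of 0.91 ± 0.11 under Y15 (adjusted p = 0.00055) and 0.76 ± 0.11 under PF-04554878 (adjusted p = 0.00041) became -0.26 and -0.08 with median scaling over all probes, which is 0.53 and 0.51 above the median of all genes. PSMD8 was at 9.68 and 9.93 with Y15, 9.07 and 8.98 with PF-04554878 and 9.32 and 8.96 in untreated cells. It was higher under Y15 (0.67, adjusted p = 0.0065; -0.50 with median scaling over all probes), a call lost without Y15 replicate 2 (adjusted p = 0.066). PSMD11 was higher under Y15 (0.51; -0.35 with median scaling over all probes) and under PF-04554878 (0.32; -0.43). Its call under Y15 was lost without Y15 replicate 2 or untreated replicate 1. Under PF-04554878 it was lost without either Y15 array, PF-04554878 replicate 2 or untreated replicate 1. PSMD2 (0.41; -0.25) and the ubiquitin receptor ADRM1, also called PSMD16 (0.36; -0.17), were higher under PF-04554878 alone, the second value again being that with median scaling over all probes.

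**Figure D3:**
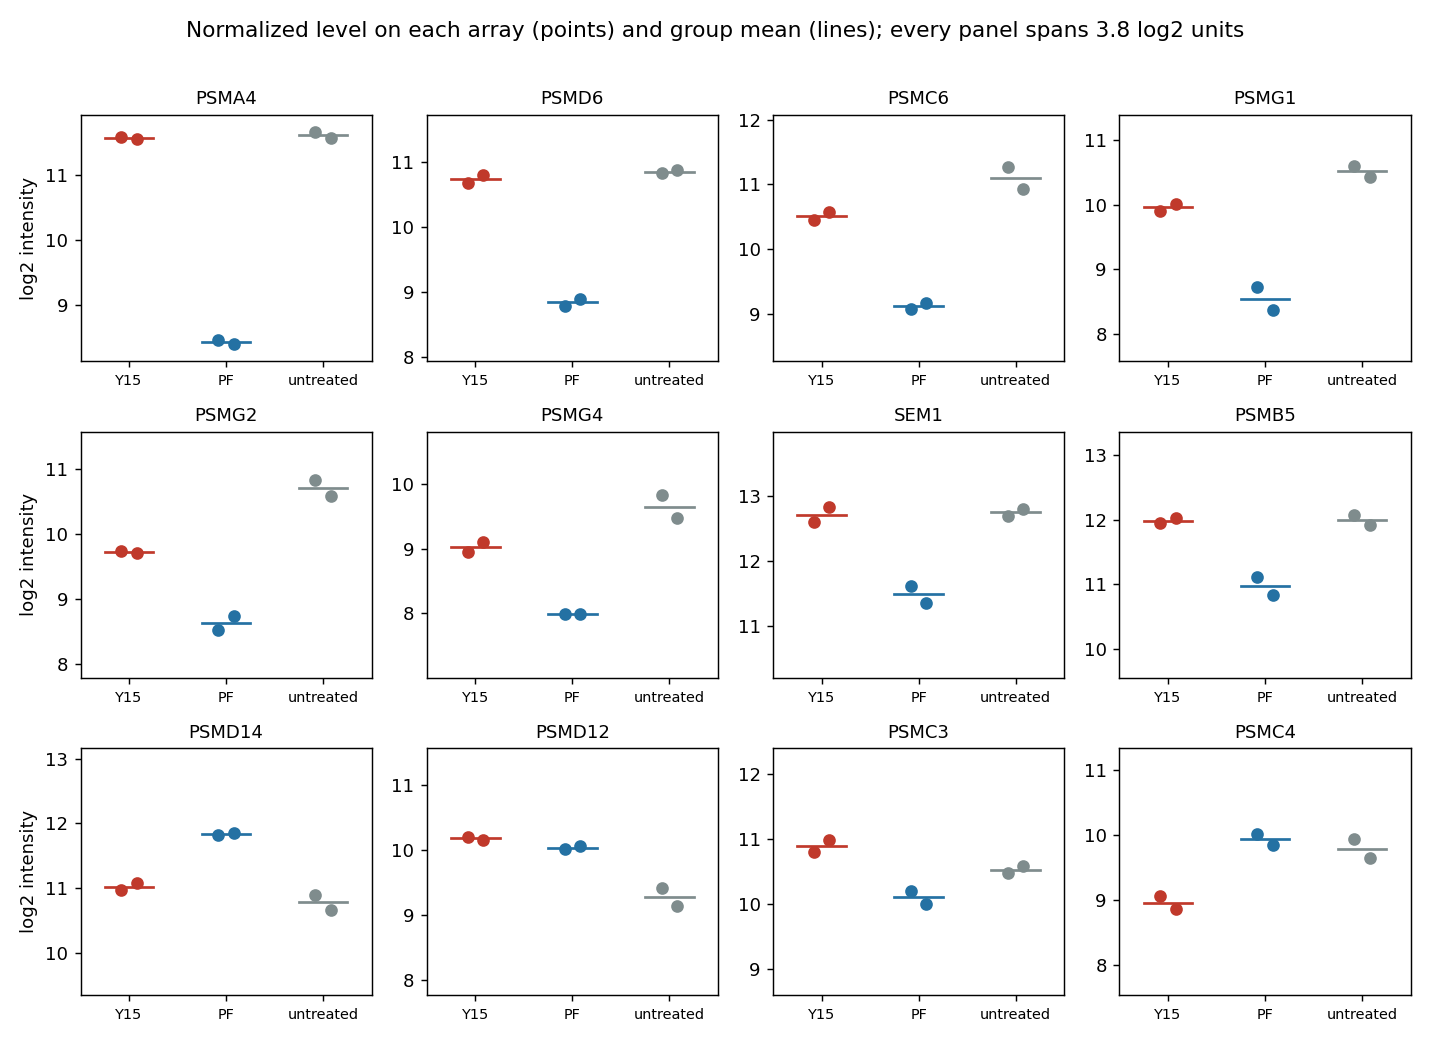
Normalized log2 intensity of 12 proteasome genes on each array (points; lines are group means, n = 2), with Y15, PF-04554878 and untreated cells from left to right. The PF-04554878 points of PSMA4, near 8.46 and 8.40, lie below all others, those of PSMD14 lie above all others, and for PSMG2 the 3 groups are separate with untreated cells on top.

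The assembly factors moved one way, as far as they passed. Of 6 tested, 4 were lower under Y15 and 5 under PF-04554878, none was higher, and the medians of their changes were -0.51 and -1.24. Of all genes, 21.4% were lower under Y15 and 35% under PF-04554878. PSMG1 and PSMG2 form a dimer on which the alpha ring is built. PSMG2 was at 9.73 and 9.70 with Y15, 8.53 and 8.73 with PF-04554878 and 10.83 and 10.59 in untreated cells. It fell to 0.502-fold under Y15 (-0.99 ± 0.11, adjusted p = 0.00043) and to 0.236-fold under PF-04554878 (-2.08 ± 0.11, adjusted p = 3.0e-06). PSMG1 was at 9.90 and 10.01 with Y15, 8.73 and 8.37 with PF-04554878 and 10.60 and 10.43 in untreated cells (-0.56 and -1.97). PSMG4, which pairs with PSMG3 on the growing alpha ring, was at 8.94 and 9.10 with Y15, 7.997 and 7.98 with PF-04554878 and 9.82 and 9.47 in untreated cells (-0.62 and -1.65). PSMG3 passed under PF-04554878 alone (-0.78, against -0.10 under Y15). Of the factors that build the ATPase ring, PSMD10, or gankyrin, was lower under each compound (-0.47 and -0.83), PSMD5 did not pass under either (-0.28 and -0.01), and PSMD9 was detected on only 1 array. Calls of PSMG1 under Y15 were lost without either Y15 array (highest adjusted p 0.092), those of PSMG4 without Y15 replicate 1 (0.065), and that of PSMD10 without Y15 replicate 1 or untreated replicate 1 (0.13).

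The activators differed from each other. PSME4, or PA200, was the only one higher under Y15 (0.70 ± 0.17, adjusted p = 0.013; -0.44 with median scaling over all probes). It was at 10.39 and 10.32 with Y15, 9.74 and 10.28 with PF-04554878 and 9.53 and 9.78 in untreated cells. Its PF-04554878 arrays lay 0.53 apart and overlapped the untreated ones, and the Y15 call was lost without either Y15 array (highest adjusted p 0.093). PSME3, the nuclear PA28 subunit, was lower under Y15 (-0.44, adjusted p = 0.012, lost without either Y15 array) and under PF-04554878 (-1.22, adjusted p = 2.5e-05), and its dimmer probe gave -0.43 and -1.15. The interferon-inducible pair PSME1 and PSME2 showed smaller changes, with PSME2 lower under Y15 (-0.45, adjusted p = 0.0079, lost without either Y15 array) and PSME1 not passing under either compound (0.09 and 0.30). The inhibitor PSMF1 was not detected on any array.

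The difference between the compounds was tested directly, at the same dose and time. In the constitutive core, 11 of 13 genes were higher with Y15 than with PF-04554878 and none was lower. The shares of all genes were 32.9% higher and 27.6% lower. By their brightest probes, PSMA3 (-0.16, 95% interval -0.47 to 0.15) and PSMB7 (0.06, -0.15 to 0.27) did not pass. The dimmer probe of PSMA3 passed as higher with Y15, at 0.59. PSMA4 differed most, at 8.85-fold (3.14 ± 0.09, adjusted p = 4.3e-07), followed by PSMD6 (1.904), PSMG1 (1.41), PSMC6 (1.39), SEM1 (1.23) and PSMG2 (1.09). All 3 inducible beta genes were higher with Y15 by their brightest probes. Dimmer probes of PSMB9 (-0.10) and PSMB8 (-0.07) did not pass, while another of PSMB8 did (0.70). The 7 genes lower with Y15 than with PF-04554878 were PSMC4 (-0.97), PSMD14 (-0.81), PSMC2 (-0.38), ADRM1 (-0.35), PSMD2 (-0.27), PSMD5 (-0.27) and PSME2 (-0.27), that is 5 genes of the 19S particle, an assembly factor and an activator. Of these calls, those of PSMC4 and PSMD14 held whichever array was left out, and the others did not. With median scaling over all probes 16 genes rather than 29 were higher with Y15, where 20.6% of all genes were. PSMA1 turned from 0.29 to -0.12 in that setting. PSMD12, PSMD11, PSME4 and PSME1 did not pass between the compounds, with differences of 0.14 (95% interval -0.10 to 0.39), 0.19 (-0.08 to 0.46), 0.34 (-0.04 to 0.73) and -0.21 (-0.47 to 0.06).

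The calls under Y15 depended on single arrays more than the others. Of 16 calls under Y15, 3 held whichever array was left out, those of PSMD12, PSMG2 and PSMC4. Without Y15 replicate 1 only 3 genes were higher and 2 lower, and without Y15 replicate 2 only 1 was higher and 6 were lower, while 9.7% and 10.4% of all genes were higher and 10.3% and 11.1% lower. Under PF-04554878, 25 of 32 calls held in all 6 fits, and between the compounds 26 of 36. The median change of the proteasome genes under PF-04554878 ranged from -0.525 to -0.386 over these fits, against -0.07 over all genes. A group left with 1 array is assumed to vary like the others in such a fit.

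Several genes had more than 1 kept probe, and their probes served as a check. Of the 17 such genes, the brightest probe passed for 7 under Y15, and all probes of 4 of these passed the same way. Under PF-04554878 this held for 9 of 14. Probes that passed in opposite directions were found under Y15 for none of the 17 genes, for 1 under PF-04554878 and for 3 in the comparison of the compounds, against 2.69%, 4.34% and 4.79% of 2901 genes. For PSMC6 the bright probe fell by 1.98 under PF-04554878, while a dim one, at 7.43 and 7.49 with PF-04554878 and 7.12 and 7.03 in untreated cells, was 0.39 higher (adjusted p = 0.016). PSMA1 had a brighter probe, at 11.98 and 11.99 with Y15 and 11.64 and 11.74 with PF-04554878 (0.29 between the compounds), and a dimmer one at 8.54 and 8.59 with Y15 and 9.24 and 9.19 with PF-04554878 (-0.65, adjusted p = 0.00046). The dimmer probe of PSMA1 also fell by 0.88 under Y15, where the brighter one did not pass (-0.17). The probes of PSMC1 gave 0.56 and -0.58 between the compounds. Under Y15 some dimmer probes passed where the brightest of their gene did not, those of ADRM1 at 0.38, PSMD4 at 0.61, PSMA6 at -0.47, PSMD6 at -0.50 and PSMB8 at -0.37. SEM1, named above for its fall under PF-04554878, had a dimmer probe at 8.65 and 8.46 with PF-04554878 and 8.52 and 8.50 in untreated cells that did not pass (0.05).

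**Figure D4:**
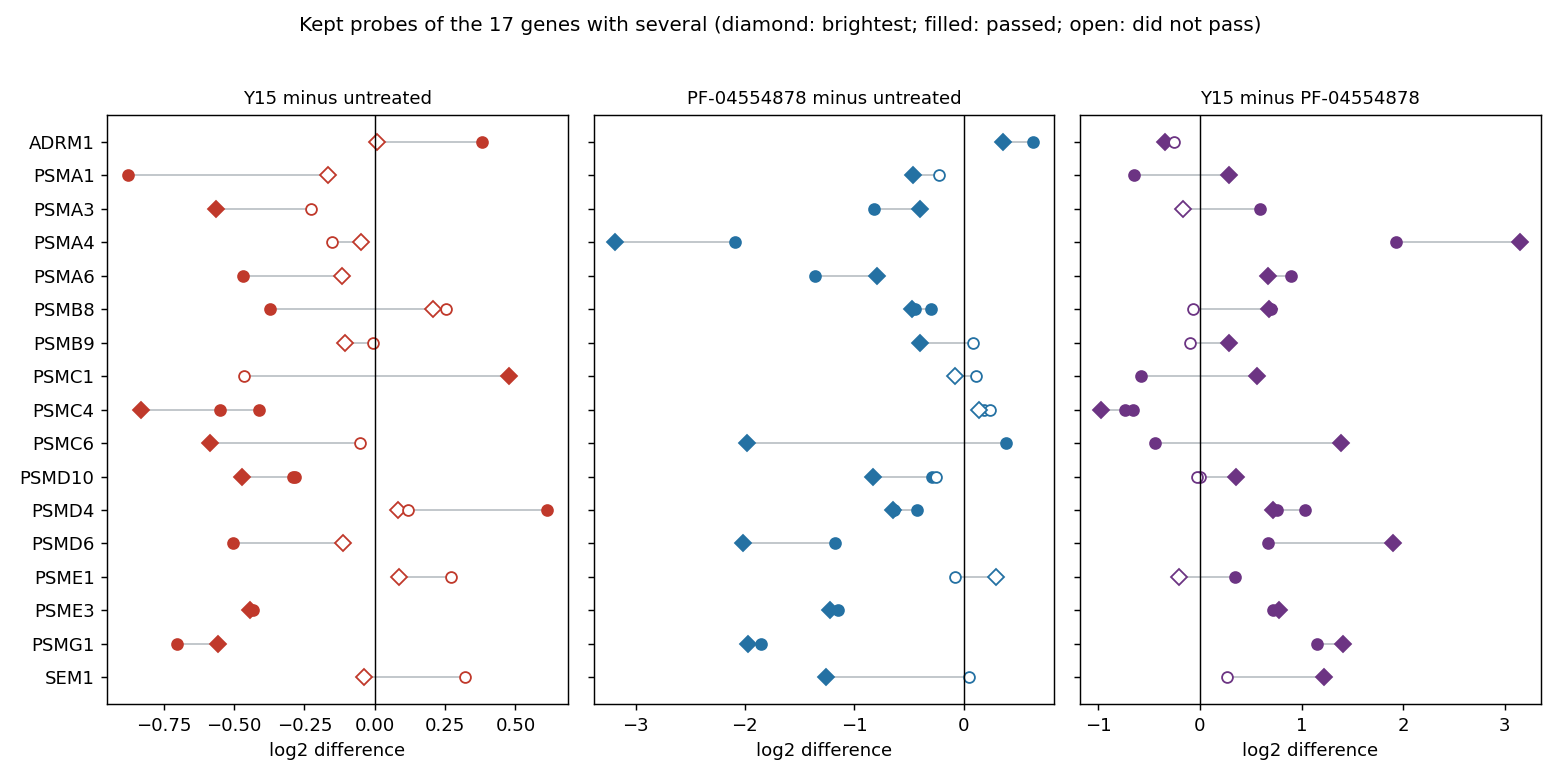
Log2 difference of every kept probe of the 17 proteasome genes with several, in the 3 comparisons; diamonds are the brightest probe, and filled symbols passed. Probes of PSMA4, PSMD6, PSME3 and PSMG1 lie together on the left under PF-04554878, whereas those of PSMC6 lie on both sides, at -1.98 and 0.39.

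Partners of the proteasome that carry other names were read from a list of 10. POMP, the chaperone that matures the core, fell by 0.73 under PF-04554878 (adjusted p = 0.00026) and was at -0.03 under Y15. PAAF1, an assembly factor of the ATPase ring, fell by 1.51 under PF-04554878, at 9.45 and 9.49 with Y15, 8.41 and 8.09 with PF-04554878 and 9.76 and 9.74 in untreated cells. UCHL5, a deubiquitinase held by ADRM1, was lower under Y15 (-0.74) and under PF-04554878 (-1.29). In all, 3 of the 10 were higher and 3 lower under Y15 (16.7% and 21.4% of all genes), and 2 were higher and 4 lower under PF-04554878 (27.2% and 35%). With median scaling over all probes none was higher and 9 were lower under each compound, and with scaling over detected probes 1 was higher and 4 lower under Y15, and 1 was higher and 5 lower under PF-04554878. ZFAND5, which binds the 26S proteasome, rose by 1.196 under Y15 and was at 0.12 under PF-04554878; with median scaling over all probes it was at 0.14 and -0.59. UBE3C, a ubiquitin ligase at the proteasome, was lower under Y15 (-0.89) and higher under PF-04554878 (0.33; -0.52 with median scaling over all probes).

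Of 12 tested genes for shuttle factors and p97 with its cofactors, 7 were higher and none lower under Y15, where 16.7% and 21.4% of all genes were, and 2 were higher and 5 lower under PF-04554878, where 27.2% and 35% were. These counts moved with the scale: over all probes, median scaling left 1 gene, ZFAND2A, higher and 10 lower under Y15, and none higher and 11 lower under PF-04554878. With scaling over detected probes 3 were higher and 2 lower under Y15, and 3 were higher and 5 lower under PF-04554878. ZFAND2A, a heat shock inducible protein also called AIRAP, led them, at 11.73 and 11.78 with Y15, 9.11 and 9.24 with PF-04554878 and 8.74 and 8.60 in untreated cells. It rose 8.48-fold under Y15 (3.08 ± 0.09, adjusted p = 1.3e-06; 1.93 with median scaling over all probes) and 1.42-fold under PF-04554878 (0.51; -0.42). SQSTM1, or p62, the autophagy receptor for ubiquitinated cargo, was 0.93 higher under Y15 (0.05 with median scaling over all probes) and 0.39 lower under PF-04554878. UBQLN2, a shuttle factor, was 0.67 higher under Y15 (-0.48 with median scaling over all probes) and fell by 0.51 under PF-04554878. Of 3 tested genes for ubiquitin and its activation, none passed under Y15 with quantile normalization. With either median scaling UBB was higher under Y15 (0.37 over all probes and 1.18 over detected probes), and UBA1 and UBA6 were lower. UBB (-0.46) and UBA6 (-0.33) were lower under PF-04554878, UBB turning to 0.53 with median scaling over detected probes.

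Factors that act on proteasome genes were listed too. NFE2L1, or NRF1, is the transcription factor that raises proteasome genes when proteasome activity is short, and small MAF proteins are its partners on DNA. NFE2L1 was at 9.90 and 9.89 with Y15, 8.78 and 8.95 with PF-04554878 and 9.0003 and 9.26 in untreated cells. It was 0.76 higher under Y15 (adjusted p = 0.0014; -0.39 with median scaling over all probes) and did not pass under PF-04554878 (-0.26). MAFG was 0.95 higher under Y15 and 2.71 higher under PF-04554878, at 8.41 and 8.50, 10.11 and 10.34, and 7.49 and 7.53 on the Y15, PF-04554878 and untreated arrays. MAFF was 1.71 and 0.95 higher. With median scaling over all probes MAFG did not pass under Y15 (0.10, adjusted p = 0.43), while MAFF passed under each compound (1.01 and 0.44). NGLY1, the glycanase that processes NRF1, fell by 0.57 under PF-04554878. Of the 10 regulators tested, 3 were higher and 1 lower under Y15 (16.7% and 21.4% of all genes), and 3 were higher and 2 lower under PF-04554878 (27.2% and 35%). With median scaling over all probes 1 was higher and 7 lower under Y15, and 2 were higher and 7 lower under PF-04554878, while with scaling over detected probes 5 were higher and 2 lower under Y15, and 4 were higher and 4 lower under PF-04554878. Among 8 genes of antigen processing, which uses peptides from the immunoproteasome, 2 were higher and 3 lower under Y15 (16.7% and 21.4% of all genes). Under PF-04554878, 4 were higher and 1 lower (27.2% and 35% of all genes). With median scaling over all probes 2 were higher and 5 lower under Y15, and 1 was higher and 3 lower under PF-04554878. With scaling over detected probes 4 were higher and 2 lower under Y15, and 6 were higher and 1 lower under PF-04554878. The peptidase ERAP2 was higher under each compound (1.93 and 1.23, each ± 0.32 SE), although its untreated arrays lay far apart, at 10.63 and 11.83. HLA-B (0.52) and HLA-C (0.55), which present peptides, were higher under PF-04554878. Neither of these 2 passed with median scaling over all probes (0.18 and 0.17). IRF1 was 1.39 higher under Y15 and 0.44 lower under PF-04554878 (0.08 with median scaling over detected probes), and TAPBP was 0.62 lower under Y15 and 0.67 higher under PF-04554878 (-0.07 with median scaling over all probes).

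NRF1 with a small MAF protein binds the antioxidant response element, here written as the letters TGACNNNGC, which share their start with the AP-1 site. RefSeq promoter windows of 300 bases (250 before and 50 after a start, GRCh38.p14) were given for 37 of the 42 genes. On either strand the letters were found in 15 of the 37 genes (40.5%), against 16.1% of all 27305 genes with a window. They were found in 8 of 22 genes lower under PF-04554878 and in 7 of the other 15. The CCAAT box, also searched on both strands, was found in 19 of the 37 genes (51.4%, against 39.7% of all genes), and the heat shock element GAANNTTC in 1 (2.7%, against 8.21%). A match is only a match of letters. Stretches with a match upstream of a start are shown for 4 genes that fell under PF-04554878 and for 2 that were higher under Y15. The matched letters are in capitals, and each stretch is read 5′ to 3′ on the strand of its gene. Each lies as follows: PSMA4 at chr15:78540644-78540684 (plus strand), PSMB3 at chr17:38752621-38752661 (plus strand), PSMG1 at chr21:39183610-39183650 (minus strand), PSMG2 at chr18:12658683-12658723 (plus strand), PSMD12 at chr17:67366718-67366758 (minus strand) and PSME4 at chr2:53971003-53971043 (minus strand).
PSMA4: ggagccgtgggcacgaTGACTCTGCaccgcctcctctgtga
PSMB3: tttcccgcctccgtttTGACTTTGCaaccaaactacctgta
PSMG1: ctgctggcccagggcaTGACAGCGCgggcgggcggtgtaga
PSMG2: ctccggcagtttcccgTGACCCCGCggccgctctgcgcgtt
PSMD12: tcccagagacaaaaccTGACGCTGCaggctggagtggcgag
PSME4: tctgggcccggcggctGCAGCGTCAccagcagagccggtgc
Counted from the start used for the window, the matches began at bases -126, -104, -183, -39, -165 and -34, in the order shown. That of PSME4 read on the opposite strand. PSMA4 had the match in 1 of its 3 windows, that of the start furthest into the gene. The stretch of PSMA4 thus lies inside the gene, downstream of its other starts, whose windows held no match. PSMG2 had the match in 1 of its 2 windows. PSMD12 and PSMA4, both with a match, thus stood at 0.76 and -3.19 under PF-04554878.

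The 7 genes that share only the name were kept apart. Of the 5 tested, NOB1 (older name PSMD8BP1), a ribosome assembly factor, was higher under PF-04554878 (0.56, adjusted p = 0.00098). CUTALP, not detected on either PF-04554878 array, was at least 1.34-fold lower there (adjusted p = 0.00042). PIPSL (-0.36), a primate fusion copy that holds PSMD4 sequence, and PSME3IP1 (-0.34) were also lower. CUTALP was lower under Y15 as well (-0.55), and PSMC3IP did not pass under either compound by its brightest probe. PSMD6-AS2 and PSMG3-AS1 were not detected. Genes of the core and the cap that no probe of the annotation named, PSMA7, PSMC5, PSMD7 and PSMD13, are not analysed here.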

How the data were processed

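As deposited, the non-normalized data gave for each array a linear mean bead intensity without background subtraction and a detection p-value, exported by the authors from GenomeStudio (no version is given in the sources used here). A second deposited table held the authors' log2 values after quantile normalization with lumi, with a column median of 6.81. These differed by at most 5.0e-09 from those recomputed here. Scale and direction are thus settled, and columns are not centered. Probes were named through the HumanHT-12 v4 annotation, which their identifiers match, although the methods name another chip. Of 47323 probes listed, 47317 had values.

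Intensities were log2 transformed and quantile normalized over all probes. Probes with detection p below 0.01 on at least 2 arrays were kept (18876, for 11388 genes), and each gene was read from its kept probe with the highest mean. A limma model (version 3.58.1) of the 3 group means was fitted over all 6 arrays in R 4.3.3 (with 3 residual and 5.24 prior degrees of freedom, two-sided). SEs had a median of 0.10 on the log2 scale, and the 2 arrays per group limit the precision. P-values measure only the spread between these arrays, which the methods describe as duplicate plates. The procedure was tested on simulated data.

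Values per array are given for genes with the 6 largest changes among those passing in each comparison, genes passing in opposite directions, genes whose probes disagree, the catalytic subunits, and genes undetected in a group. Up to 4 genes of each related list were named. The members and lists were chosen with earlier results of these data known, so no list was tested as a set. Alternatives were nec background correction (offset 16), median scaling over all or over kept probes, the deposited value table, other detection filters, 1 probe per gene, a trended and robust prior, a replicate block, only the compared groups, other thresholds, and leaving out each array. Promoter sequences were from RefSeq.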

Additional observations from a re-analysis of the deposited data

How the results depend on the processing

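The counts were recomputed under every alternative: proteasome genes higher and lower under Y15 (7 and 9), under PF-04554878 (6 and 26) and with Y15 against PF-04554878 (29 and 7). Scaling each array to its median over all probes gave 0 higher and 38 lower under Y15, where 3.37% of all genes were higher and 79.6% lower. It gave 1 higher under PF-04554878 (8.21% of all genes were), and 16 higher with Y15 against PF-04554878 (20.6% of all genes were). Among the 20 genes chosen for values per array, these changes were counted as turned below 0 under that scaling. Under Y15 they were PSMB10 (-0.96), PSMB7 (-0.87), PSMB8 (-0.91), PSMC1 (-0.34), PSMC3 (-0.68), PSMD12 (-0.26), PSMD8 (-0.50) and PSME4 (-0.44). Under PF-04554878 they were PSMB7 (-0.49), PSMC4 (-0.67) and PSMD12 (-0.081). Between the compounds it was PSMA1 (-0.12, and -0.068 with scaling over detected probes). Rises of other genes that turned below 0, such as PSMB2 and PSMD11, are given in the Results. The treated arrays are dimmer, which quantile normalization removes and this scaling keeps in part. A minimum of 2-fold gave 0 and 0 under Y15, 1 and 10 under PF-04554878 and 9 and 0 between the compounds, as fewer genes reach that size. The shares of all genes were then 3.28% and 1.38%, 6.96% and 9.58%, and 9.11% and 6.34%, in the same order. The genes lower with Y15 than with PF-04554878 were 3 with nec background correction, where 27.6% of all genes were. With detection on all 6 arrays they were 4, where 30% of all genes were. The cause was not tested. Leaving out each array in turn gave 1 to 8 higher and 2 to 10 lower under Y15, 5 to 7 higher and 21 to 26 lower under PF-04554878, and 24 to 29 higher and 2 to 7 lower between the compounds. With the replicate number as a replicate block the counts were 7 and 9, 6 and 26, and 29 and 6. Of all genes, 16% and 20.4%, 27% and 34.8%, and 32.8% and 27.5% then passed, in the same order. The labels share only a number, and deviations of arrays with the same number correlated at -0.10, -0.28 and 0.21. The other alternatives listed kept each count within 1.5 times. Of 957 recomputed changes of these 20 genes, 896 kept their call. Signs were not compared where a change passed in neither setting. Of the rest, 13 turned in sign, 35 were no longer past the threshold and 13 newly passed. Probes near background, such as those of PSMB9, limit what can be read.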
